A study of Homo sapiens with 8 samples.

Results

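The genes KMT2A, KMT2C, KMT2D and NSD1 encode 4 large histone lysine methyltransferases, and their RNA carried 18 of the 4626 features at which the submitters listed a difference in N6-methyladenosine (m6A) between decitabine and DMSO. The features were taken by gene name alone: 4 fell in KMT2A, 4 in KMT2C, 7 in KMT2D and 3 in NSD1, out of 3114 gene names in all. HL-60, a human promyelocytic leukaemia cell line of wild-type genotype per the labels, received either decitabine, a deoxycytidine analogue that traps DNA methyltransferases, to 100 nM on 3 occasions (0, 24 and 48 hours) or DMSO, and RNA was taken at 72 hours. Methylated RNA was pulled down with an anti-m6A antibody and sequenced beside input RNA (MeRIP-seq), which gave 2 m6A and 2 input libraries with decitabine and 2 m6A and 2 input libraries with DMSO. The cultures were seeded in duplicate from a single line, and nothing in the labels says more about how independent they were. All values come from the authors' deposited table, which gives 1 ratio per feature and nothing library by library. Depth, replicate spread and the error of every ratio are therefore unknown here.

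KMT2A (also called MLL1) trimethylates lysine 4 of histone H3 at promoters, keeps HOX genes active in blood progenitors, and is cut and fused to partner genes in acute leukaemias. KMT2C and KMT2D are the paired enzymes that monomethylate the same lysine at enhancers, in complexes that also hold the demethylase KDM6A, and NSD1 places methyl groups on lysine 36 of histone H3 in active chromatin. m6A is written on messenger RNA by METTL3 and METTL14, mostly in long internal exons and near stop codons, and it affects the decay, splicing and translation of the RNA.

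Each feature has a log ratio and a p-value from the authors' own comparison. The ratio was read as a natural log, and it is given below as the fold of the larger over the smaller arm, with its sign. A positive sign likely means more m6A signal with decitabine than with DMSO, but the direction is not stated in the sources used here. The sources used here do not give its correction for input, so a difference in RNA level and a difference in methylation cannot be told apart. A ratio is called stepped where it equals a whole number or a whole number plus 0.5 (relative tolerance 1e-08). All features are in the table because they passed a threshold (no p-value above 0.00455), so sites of these genes that did not pass are not known, and the p-values below rank the sites without testing the genes.

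Positive features outnumbered negative ones in these 4 genes. The authors' deposited table had 14 of the 18 as positive and 4 as negative, a positive share of 77.8%, beside 56.3% of all listed features. Stepped ratios made up 4 of the 18, all positive (22.2%, against 30.6% of all listed features). Most stepped ratios of the whole table were positive too. Of its 1415 stepped ratios, 1349 equalled a fraction with a denominator of 1 or 2 at a tighter tolerance, and 80.9% of these were positive. The sign of the 4 stepped ratios therefore does not set these genes apart. With stepped ratios left out of the authors' deposited table, 10 of 14 features were positive, beside 45.3% over the whole table. Features of 10-fold or more were 5 positive and 1 negative, and such features made up 28.2% (positive) and 10.3% (negative) of the authors' deposited table. The median positive feature stood at 4.55-fold in the 4 genes, against 10.1-fold over the authors' deposited table, and the median negative feature at 4.61-fold, against 3.95-fold. These are counts over few sites that share 4 transcripts, and no test was made of them.

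**Figure D1:**
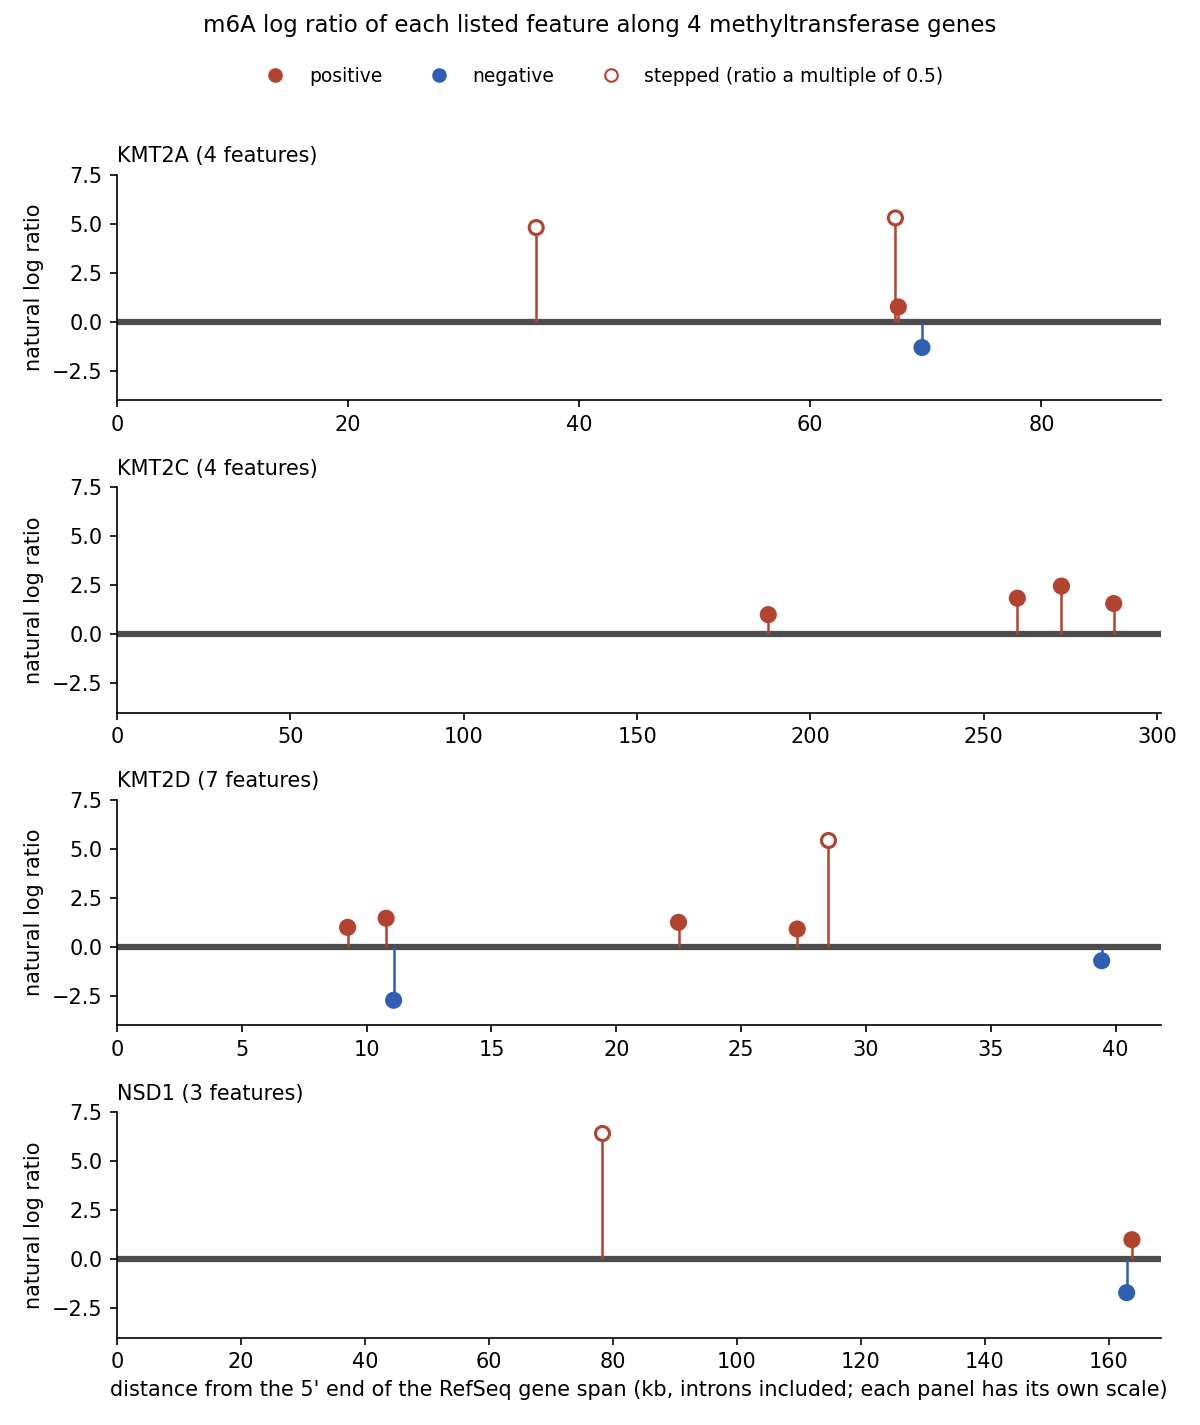
Natural log ratio (vertical axis) of each listed feature against its distance in kb from the 5' end of the RefSeq gene span (horizontal axis, introns included, own scale per gene), with red points positive, blue points negative and open points stepped. KMT2C holds 4 positive features in the later part of its span, while KMT2A, KMT2D and NSD1 each hold both signs, with 1, 2 and 1 negative features.

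KMT2A (ENSG00000118058.23, plus strand of chromosome 11, RefSeq span 118436492 to 118526832) held 3 positive features and 1 negative one, and the negative one had the smallest p-value. Its first site in the authors' deposited table (118472746 to 118472795, 40.2% along the span) was positive at 123-fold (p = 0.00208). The second (118503834 to 118503883) was positive at 201-fold (p = 0.000862) in the authors' deposited table. Both are stepped, and the first lies 31088 nt upstream of the second.

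The other two KMT2A sites had far smaller ratios. A site that starts 250 nt after the 201-fold one (118504084 to 118504133) was positive at 2.14-fold (p = 0.00182) in the authors' deposited table. The last site (118506133 to 118506182), 2049 nt further on, was negative at 3.71-fold (p = 0.000118) in the authors' deposited table. Thus 3 of the 4 sites of KMT2A lay between 74.6% and 77.1% along the span, and within that short stretch the sign differed. The order by fold and the order by p-value disagreed: the 201-fold site came second by p-value and the 123-fold site last.

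KMT2A, KMT2D and NSD1 held both signs, as did 58.4% of the 946 genes with several features in the authors' deposited table. Of those 946 genes, 607 had only 2 features, so that share is not matched for number of sites. KMT2C (ENSG00000055609.18, minus strand of chromosome 7, span 152134925 to 152436003) was the only 1 of the 4 genes with features of a single sign, and none of its ratios was stepped. From 5' to 3', the authors' deposited table gave a positive 2.73-fold site (152248143 to 152248192, p = 0.00139) and a positive 6.31-fold site (152176301 to 152176350, p = 0.00238). A positive 11.7-fold site (152163576 to 152163625, p = 9.4e-05) had the smallest p-value of the gene in the authors' deposited table. The site nearest the 3' end (152148501 to 152148550) was positive at 4.81-fold (p = 0.00285) in the authors' deposited table. The first lay 62.4% along the span and the last 95.5%, and their starts were 71842, 12725 and 15075 nt apart.

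Of 75 genes with 4 listed features in the authors' deposited table, 10 (13.3%) had 4 positive features, KMT2C among them. No expected share was computed, so this count does not mark KMT2C as unusual. RefSeq lists 4 pseudogenes named after KMT2C, and 0 features of the authors' deposited table carry their names. The rule for reads shared with such copies is unknown here, so the KMT2C values are uncertain to that extent.

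KMT2D (ENSG00000167548.15, minus strand of chromosome 12, span 49018978 to 49060794) had the most sites of the 4 genes, 7 in a span of 41.8 kb. KMT2D was among 11 gene names of the authors' deposited table with 7 or more features, with copies on chromosome Y left out. The first site from the 5' side (49051534 to 49051583) was positive at 2.69-fold (p = 0.00231) in the authors' deposited table. The second (49049990 to 49050039) was positive at 4.28-fold and had the smallest p-value of the gene in the authors' deposited table (p = 0.000443).

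A sign change followed within 300 nt. The next KMT2D site (49049690 to 49049739) was negative at 15.4-fold (p = 0.00214) in the authors' deposited table, the largest negative ratio among the 18 features. On the natural log scale the value of this site minus that of the 4.28-fold one came to -4.19. The next sites lay 11413 and 4756 nt further on, and both were positive in the authors' deposited table. The upstream one stood at 3.48-fold (49038277 to 49038326, p = 0.000458), and the downstream one stood in the authors' deposited table at 2.47-fold (49033521 to 49033570, p = 0.00347).

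The last KMT2D sites were of opposite sign and unlike size. A stepped, positive 227-fold site (49032272 to 49032321, p = 0.00069) came 1249 nt after the 2.47-fold one in the authors' deposited table. The site nearest the 3' end (49021323 to 49021372), 2345 nt from the end of the span, was negative at 2.04-fold (p = 0.000497) in the authors' deposited table. Apart from the 227-fold and 15.4-fold sites, the ratios of KMT2D were 2.04-fold to 4.28-fold in the authors' deposited table.

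NSD1 (ENSG00000165671.20, plus strand of chromosome 5, span 177131798 to 177300213) carried the largest ratio of the 4 genes. Its first site (177210091 to 177210140, 46.5% along the span) was positive at 629-fold, a stepped ratio, in the authors' deposited table (p = 3.6e-08). By fold that site ranked 18th of 4625 features in the authors' deposited table, with the single feature whose log ratio exceeded 20 left out. The next NSD1 site started 84577 nt downstream, 5496 nt from the 3' end of the span, and the last one lay closer to that end. These neighbours had opposite signs in the authors' deposited table, with a negative 5.52-fold site (177294668 to 177294717, p = 0.000379) and, 850 nt further on, a positive 2.704-fold site (177295518 to 177295567, p = 0.000347).

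**Figure D2:**
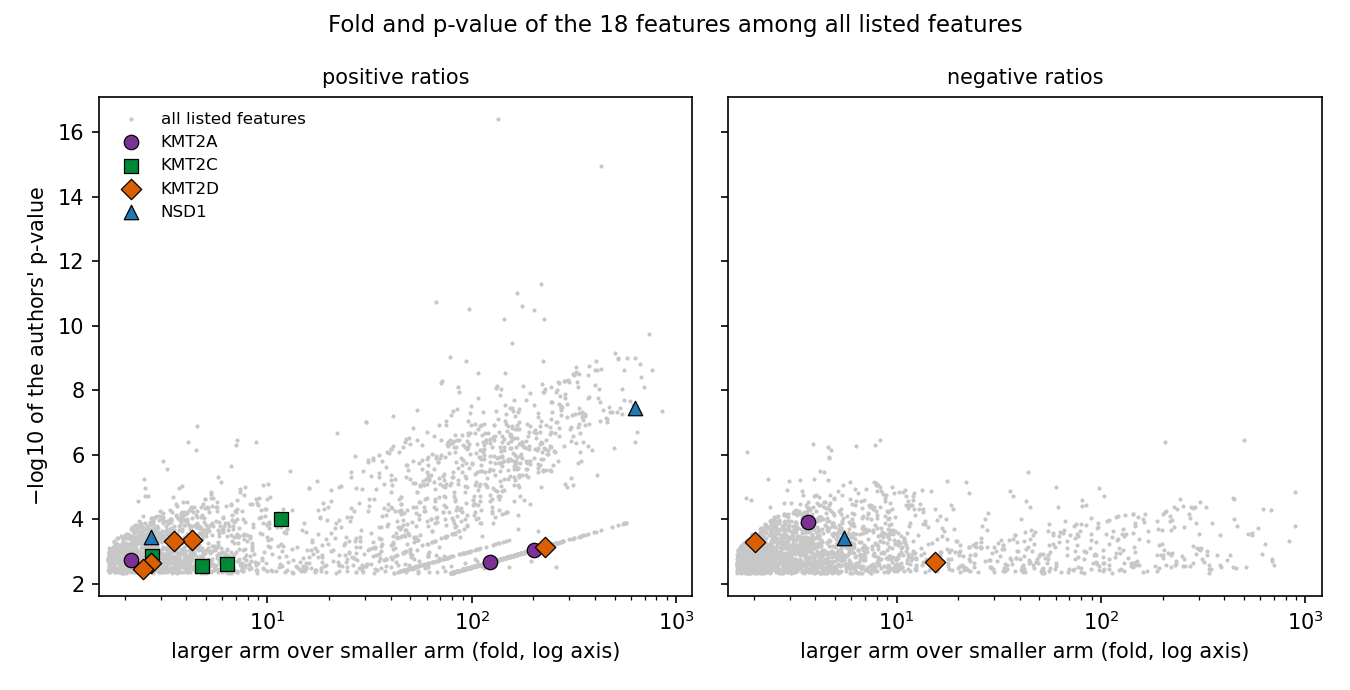
Fold of the larger over the smaller arm (horizontal log axis) against −log10 of the authors' p-value (vertical axis), for positive features on the left and negative features on the right; grey points are all listed features but 1, coloured symbols the 18 features. The 629-fold NSD1 site lies in the upper cloud of large positive ratios, while the 123-fold and 201-fold KMT2A sites and the 227-fold KMT2D site lie on a narrow band along the lower edge.

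The stepped sites of KMT2A and KMT2D had p-values on a single curve of p-value against ratio. At 123-fold, the features of 2 other genes, BASP1 and ZBTB43, carried the same p-value as KMT2A to 7 digits in the authors' deposited table. Such shared values at 79 whole-number ratios between 30-fold and 343-fold traced a smooth curve of p-value against fold. The p-values of the 123-fold and 201-fold KMT2A sites and the 227-fold KMT2D site differed from that curve, interpolated without them, by 0.0006%, 0.00076% and 0.013%. Of the 912 positive whole-number ratios in the authors' deposited table, 810 lay in the range of the curve, and 270 of these (33.3%) lay within 1% of it. The 270 include features from which the curve was drawn, so the 33.3% is not an independent share. At the same 123-fold ratio another feature of the authors' deposited table reached p = 4.2e-07, and at 227-fold another reached p = 6.5e-07. The 629-fold NSD1 site lay beyond the range of the curve, so it could not be set against it. At the same 629-fold ratio another feature of the authors' deposited table reached p = 1.0e-09. The NSD1 ratio is stepped as well, and with depth unknown its size is also uncertain as a measure of change. How many libraries hold the signal of a site on the curve cannot be read from these values, and there the p-value adds nothing to the ratio, so the 123-fold, 201-fold and 227-fold values are uncertain as measures of change.

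Most of the other ratios were also fractions of whole numbers. Of the 18 ratios taken from the authors' deposited table, 14 equalled a fraction with a denominator of 500 or less to a relative tolerance of 1e-09, as did 87.5% of all listed ratios. The largest KMT2C ratio equalled 199/17, the 6.31-fold KMT2C ratio 82/13, the negative KMT2A ratio 63/17 and the negative 15.4-fold KMT2D ratio 307/20. Beside the 4 stepped ratios, whose denominator was 1, these were the members with the lowest denominators. The other 6 with a fraction had denominators of 103 to 265, among them the 4.28-fold KMT2D site (484/113) and both 3' sites of NSD1 (833/151 and 695/257). Over the authors' deposited table, ratios with denominators over 20 had a median of 3.43-fold, those of 3 to 20 a median of 8.75-fold and those of 1 or 2 a median of 113.0-fold. The whole numbers behind a ratio are not given, and any fraction may have been reduced, so these are not read totals.

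Neighbouring sites of these genes differed in sign nearly as often as they agreed, as over all listed genes. Of the 14 pairs of neighbouring sites at any distance, 8 had the same sign and 6 opposite signs. Of 1502 such pairs over all genes of the authors' deposited table, 53.3% had the same sign. Among the 6 pairs that lay up to 3000 nt apart, 3 had the same sign: the 201-fold and 2.14-fold sites of KMT2A, the first pair of KMT2D and the 2.47-fold and 227-fold sites of KMT2D. The 3 with opposite signs were the last pair of KMT2A, the 4.28-fold and 15.4-fold sites of KMT2D and the last pair of NSD1. Over all genes, 331 of 620 pairs up to 500 nt apart had the same sign (53.4%). At 500 to 3000 nt the count was 272 of 491 pairs (55.4%). The last 10% of the span held 5 of the 18 sites (27.8%), against 38.4% of the 4240 features placed inside the span of a RefSeq symbol, and the first 10% held 0, against 6.30%. Exons and introns were not annotated here, so spacing along the mature transcripts is unknown. No other RefSeq gene overlapped any of the 18 sites.

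Among related genes the listed features were of both signs, and no contrast with the 4 genes was tested. A list of 66 genes (other lysine 4 and lysine 36 methyltransferases, subunits of the KMT2 complexes, the opposing demethylases, other histone lysine methyltransferases and KMT2A fusion partners) had 32 genes in the authors' deposited table. The share of all genes that is listed was not computed, so this count and those of the sub-lists below say nothing of enrichment. Taking the feature with the smallest p-value for each of the 32 genes, 17 were positive and 15 negative, beside 58.9% positive over all listed genes. Their median natural log ratio was 0.74, against 0.93 over all genes. Of the 66 features of these genes, 30 were positive (45.5%, against 56.3% of all listed features). Stepped ratios made up 18 of the 66 (27.3%, against 30.6%). Of the 18 related genes with several features, 15 held both signs (83.3%). The 58.4% given above for all such genes is not matched for number of features. With stepped ratios left out, 9 of the 26 remaining genes were led by a positive and 17 by a negative feature. No such share by gene was computed over all listed genes, where 45.3% of features without stepped ratios were positive. By the smallest p-value over all features, KMT2C, KMT2D and NSD1 were positive and KMT2A negative.

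Neighbouring sites of related genes often differed in sign. Of 34 neighbouring pairs at any distance in these genes, 21 had opposite signs and 13 the same sign (38.2%). The same-sign share was 53.3% over all genes of the authors' deposited table. Up to 500 nt apart, 6 of 9 pairs had opposite signs, against 289 of 620 over all genes. These are few pairs that share 18 genes, and the contrast was not tested. KMT2B, a paralogue of KMT2A, had in the authors' deposited table a negative 3.47-fold site (p = 1.7e-05), a positive 6.15-fold site 498 nt further on, a positive 2.87-fold site 200 nt after that, and a positive 7.63-fold site. NSD2, a paralogue of NSD1, held 5 sites in the authors' deposited table, led by a negative 4.74-fold site (p = 1.7e-05) that lay 350 nt after a positive 2.39-fold one. Its other sites were a positive 2.51-fold, a negative 17.8-fold and a positive, stepped 278-fold one. SETD1B, another lysine 4 methyltransferase, had a positive 3.07-fold site and, 149 nt further on, a negative 2.21-fold site in the authors' deposited table. ASH1L, which acts on lysine 36, was positive at 6.92-fold (p = 5.4e-05) and 2.65-fold and negative at 2.49-fold in the authors' deposited table. The 2.65-fold ASH1L feature runs from 155482408 to 155520232, far wider than the 50-nt sites of KMT2A, KMT2C, KMT2D and NSD1.

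Subunits and partners of the KMT2 complexes also held both signs. Of 15 complex subunits and partners 5 were listed, of which 2 had a positive leading feature and 3 a negative one. PAXIP1, a subunit of the KMT2C and KMT2D complexes, had its smallest p-value at a stepped, positive 99.5-fold site (p = 1.2e-07) and also held a negative 8.99-fold site in the authors' deposited table. NCOA6, a coactivator found in the same complexes, was led by a negative 6.04-fold site (p = 9.7e-05) in the authors' deposited table, with a second negative site of 4.64-fold and a positive one of 1.70-fold. Among 11 fusion partners of KMT2A, 4 were listed, 2 led by a positive and 2 by a negative feature. AFF1 had its smallest p-value at a stepped, positive 326-fold feature (p = 2.9e-09) and MLLT10 held a single positive 614-fold stepped ratio (p = 2.9e-08) in the authors' deposited table. The 326-fold AFF1 feature runs from 87090037 to 87091808, also wider than 50 nt. AFF1 also held a negative 6.35-fold site in the authors' deposited table, where AFF3 had a single negative 109.5-fold stepped ratio and MLLT6 a single negative 5.33-fold site.

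Demethylases and the other methyltransferases were also of both signs. Of 11 demethylases of lysine 4 and lysine 36, 5 were listed, 2 led by a positive and 3 by a negative feature. KDM5A, which removes methyl groups from lysine 4, had positive stepped ratios of 60-fold (p = 3.4e-06) and 113-fold, and between them a negative 1.80-fold site, in the authors' deposited table. Of 14 other histone lysine methyltransferases 9 were listed, 6 led by a positive and 3 by a negative feature. EHMT1, which acts on lysine 9, held a single positive 210.0-fold stepped ratio (p = 6.3e-07) in the authors' deposited table.

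**Figure D3:**
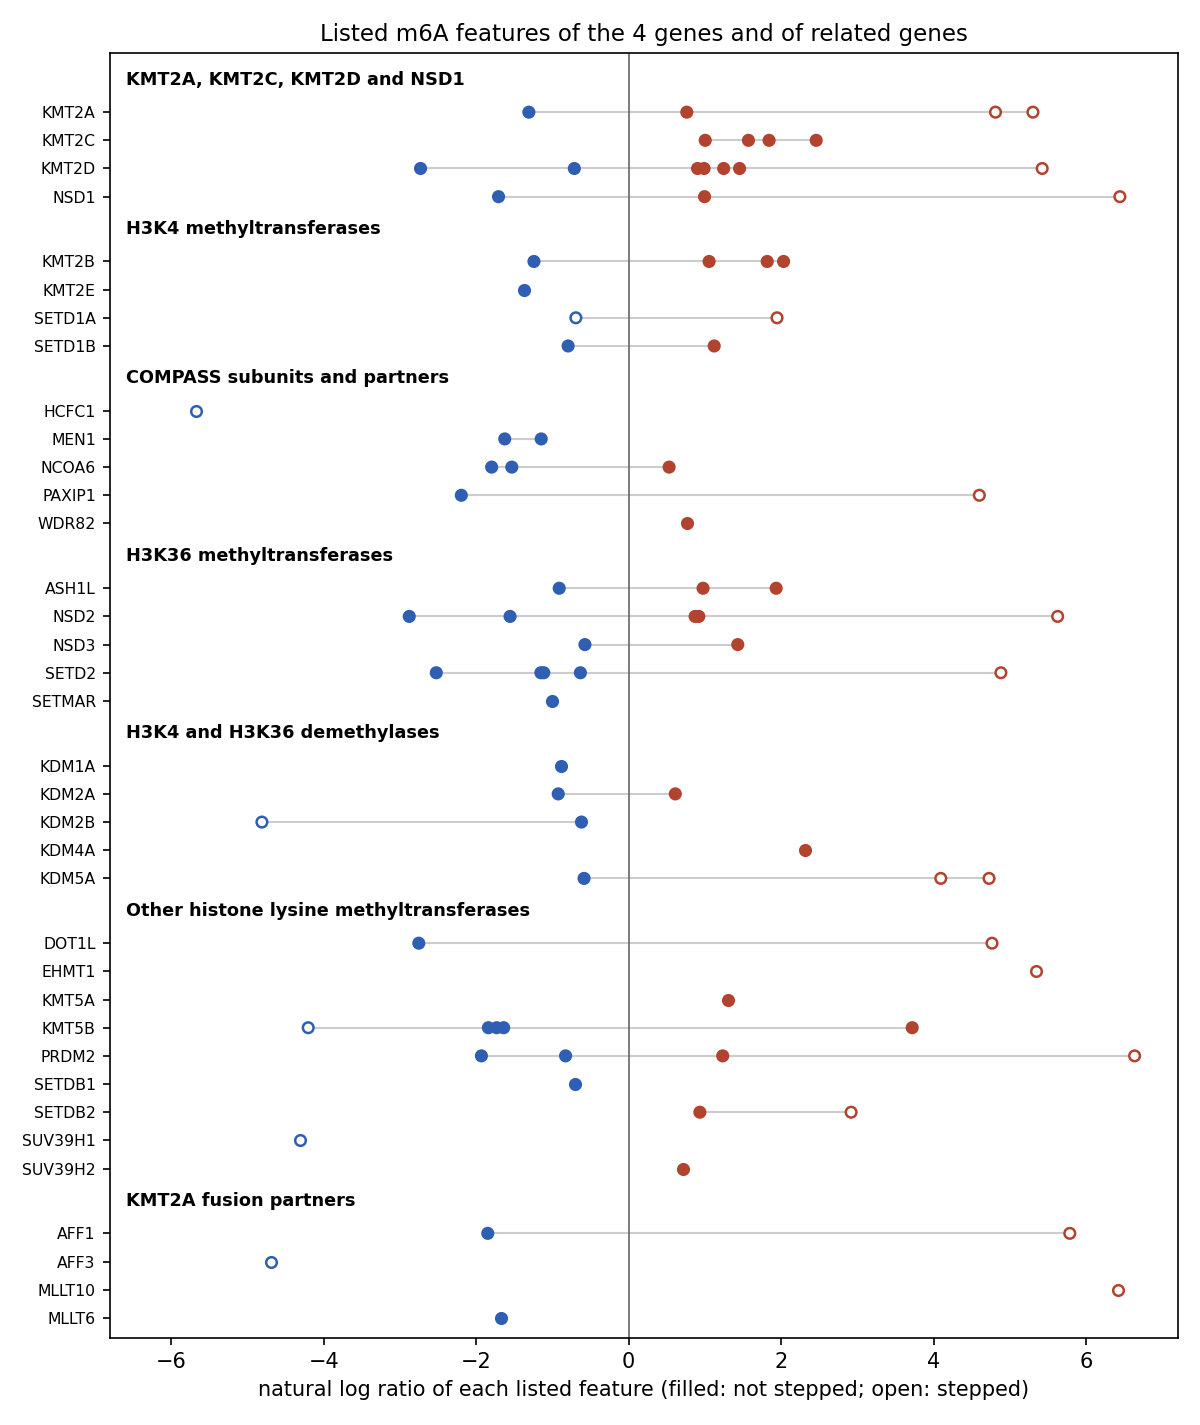
Natural log ratio (horizontal axis) of every listed feature of KMT2A, KMT2C, KMT2D, NSD1 and 32 related genes (rows, grouped by role), with red points positive, blue points negative and open points stepped; grey lines join the lowest and highest feature of a gene. KMT2C is the only 1 of the 4 genes at the top without a negative feature, and 15 of the 18 related genes with several features hold both signs.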

How the data were processed

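MeRIP-seq of 8 libraries in 4 groups of 2 was grouped by title. The submitters' processing notes name STAR 2.7.3a and the build hg38. Feature scoring, input correction, library scaling and pooling are not described in any source used here. The authors' deposited log ratio names no base. Base e was used, a natural log, because 87.5% of its exponentials are fractions with denominators up to 500, against 0.151% under base 2. No adjustment is stated for the deposited p-value. Depth is unknown, so no interval was computed. Positions are the file's, on hg38. Gene spans and pathway symbols came from RefSeq GRCh38.p14, the same primary assembly. The planned comparisons were descriptive: counts by sign, sites along genes, and each related gene by its smallest p-value, with up to 12 named by p-value and at least 1 per sub-list. AFF3, MLLT6, KMT5B, MEN1, HCFC1 and SETDB2 fall outside that rule and were chosen after their values were seen. Every site of the 4 genes is given. The genes and lists were chosen with earlier results of these data known. Fraction finding was tested on simulated data. Python 3.11.15, pandas 2.3.3, numpy 2.4.6 and matplotlib 3.10.9 were used.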

Additional observations from a re-analysis of the deposited data

How the results depend on the processing

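No paired analysis was possible because the deposited table holds no value per library; for the same reason no replicate could be left out. Motif searches and distances along exons were not run, since no genome sequence or exon annotation was used. Of the 14 positive and 4 negative features, 7 positive and 3 negative had a p-value of 0.001 or less (70.0% positive, against 60.6% of all listed features at that threshold). Leaving out ratios with a denominator of 20 or less, a setting chosen after seeing the data, left 8 positive and 2 negative features, since it holds fewer sites (80.0% positive, against 46.7% of all). The counts were 10 and 4 without stepped ratios. Leaving out denominators up to 10 removed the same sites (44.9% of all listed features positive there), and assignment by position or merging within 200 nt could change nothing, since no other gene overlaps a site and no pair of sites is that close. KMT2A, at a natural log ratio of -1.31 by its smallest p-value, turned positive by its largest ratio (5.30) and by the median of its sites (2.79), and kept -1.31 without stepped ratios. KMT2C, KMT2D and NSD1 were positive in all of these settings, of which the largest ratio and the median kept stepped ratios. Among sites that were not stepped, the largest ratio was negative in KMT2D (15.4-fold) and in NSD1 (5.52-fold). The positive sign of NSD1 without stepped ratios rested on close p-values of the authors' comparison (0.000347 against 0.000379). The median fold of the 18 features was 4.55, and 2.86 if the log were read as base 2. Without stepped ratios 9 related genes were led by a positive and 17 by a negative feature, out of 26, and by the largest ratio 19 and 13 of 32. The share over all listed genes was not computed in either setting.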

Other observations

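Further related genes differed among themselves in sign, and the contrasts were not tested. The authors' deposited table gave SETDB2 a positive 2.54-fold site and a stepped, positive 18.5-fold site, and 0 negative ones. SETD2, which trimethylates lysine 36 of histone H3, held 4 negative sites of 1.88-fold to 12.5-fold and a positive 132-fold stepped ratio (p = 1.2e-06) between them in the authors' deposited table. KMT5B, which acts on lysine 20 of histone H4, had negative sites of 67-fold (stepped), 5.16-fold, 5.65-fold and 6.30-fold and, 549 nt after the last of these, a positive 41.25-fold site in the authors' deposited table. MEN1, the menin subunit that tethers KMT2A, had 2 negative sites 248 nt apart in the authors' deposited table, at 5.09-fold (p = 0.00156) and 3.15-fold (p = 0.00433). HCFC1, another KMT2 complex partner, held in the authors' deposited table a single site, negative at 291-fold and stepped (p = 0.000128). PRDM2, a PR-domain zinc finger gene, had a negative 6.91-fold and a positive 3.43-fold site only 100 nt apart in the authors' deposited table, beside its positive 763-fold stepped ratio (p = 2.3e-09). It also held a negative 2.29-fold site, 1098 nt upstream of the 763-fold one.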
